A study of Mus musculus with 24 samples.

Results

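Genes that mark neural progenitors and immature neurons of the adult hippocampus were followed in the deposited RNA-Seq counts, 9 of the 55385 gene identifiers in the files. They were chosen by name: *Nes*, *Eomes*, *Sox4*, *Sox11*, *Neurod1*, *Dcx*, *Igfbpl1*, *Draxin* and *Tubb3*. All 9 were found once each by Ensembl identifier, and the rule that chose them lists names and no measured value. However, the 9 genes and the gene lists and marker sets used below were chosen with earlier results of these data known. The shares called below are thus not blind to those results.

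New granule neurons are made throughout adult life in the dentate gyrus of the mouse hippocampus. Radial glia-like stem cells, which hold the intermediate filament protein nestin (*Nes*), give rise to intermediate progenitors that express the T-box factor *Eomes*. These become neuroblasts that switch on *Sox4*, *Sox11* and *Neurod1* and then immature neurons that hold doublecortin (*Dcx*) before they mature into granule cells. Few cells of the tissue are in these stages at any time, and several of the genes are also used by other cells: *Nes* by reactive astrocytes and blood vessels, *Neurod1* by mature granule cells and *Tubb3* by neurons of all ages.

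The 24 libraries were made from whole hippocampi of 16- to 22-week-old mice of both sexes, 4 mice in each of 6 groups. All mice carried floxed *Tsc1* alleles (Tsc1f/f) and all received tamoxifen, the controls included. *Tsc1-Cre+* mice also carried a Camk2a-CreERT2 transgene, so that the deletion was directed to CAMK2A-expressing neurons, and they were taken on day 4, 6, 8 or 13 after the start of tamoxifen. *Tsc1-Cre+*-Rap 4 mice were *Tsc1-Cre+* mice that received 10 mg/kg rapamycin daily from day 4 and were taken on day 13. *Tsc1-Cre-* controls, which lacked the transgene, were taken on day 8, and the 24 mice included no rapamycin-treated *Tsc1-Cre-* mice. Against controls, genotype, drug and day therefore cannot be told apart in rapamycin-treated mice. Genotype and day cannot be told apart on days 4, 6 and 13. The targeted gene *Tsc1* lay between 103 and 109 CPM in the controls and between 57.4 and 81.7 CPM in the 20 *Tsc1-Cre+* mice, where CPM are counts scaled to library size with TMM factors. *Camk2a*, which marks the excitatory neurons of this tissue, was at 1257 CPM or more in every library.

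Total counts ranged from 28208561 to 126435936 per mouse. The deepest library was day 13 mouse B and the shallowest was rapamycin mouse A. The animal numbers fall into series, and these are shared between control and day 8 but not between any other groups. Outside that one comparison, series and group cannot be told apart, and what a series stands for was not stated. On day 13, mice A and B shared a series, and on day 4, mouse D came from a different series than the other mice of its group. In whole tissue, fewer cells of a type and less RNA per cell cannot be told apart. Mouse letters name animals within a group and were not taken as pairs between groups. Between control and day 8, however, mice A and B of both groups share a series, and mice C and D share another.

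The question asked of the 9 genes was how they moved after *Tsc1* deletion and whether they differed with rapamycin. *Sox11*, *Nes* and *Tubb3* were called higher on day 13 than in controls, and *Tubb3* already on day 8. *Nes*, *Sox11*, *Tubb3* and *Sox4* were called lower in rapamycin-treated mice than in untreated day 13 mice, and *Nes* was also called lower than in controls. *Dcx*, the usual marker of immature neurons, was not called in any comparison, nor were *Eomes*, *Neurod1*, *Igfbpl1* and *Draxin*. A gene was called at a Benjamini-Hochberg adjusted p under 0.05 over all genes tested and an absolute log2 fold change over 0.5 in edgeR's quasi-likelihood test of 4 against 4 mice.

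These counts stand beside the share of all genes called in the same comparison. On day 4, 0 of 9 genes were called by edgeR, beside 0.68% of all genes. An unadjusted edgeR p under 0.05 was found for 4 of the 9 and for 4654 of all 25308 genes tested. DESeq2 called 0 of the 9 and 209 of 40898 genes. On day 6, 0 of 9 were called by edgeR, beside 1.32% of all genes. An unadjusted edgeR p under 0.05 was found for 5 of the 9 and for 6076 of all 25057 genes tested. DESeq2 called 0 of the 9 and 295 of 40693 genes. On day 8, 1 of 8 tested was called higher and 0 lower, beside 3.99% of all genes, 2.15% higher and 1.84% lower. On day 13, 3 of 9 were called higher and 0 lower, beside 16.5% of all genes, 8.4% higher and 8.06% lower. Rapamycin-treated mice differed from controls in 1 of 9, called lower, and in 1.41% of all genes, 0.372% higher and 1.04% lower. Rapamycin-treated mice differed from day 13 mice in 4 of 8 tested, all lower, and in 21.1% of all genes, 9.94% higher and 11.2% lower. Between day 13 and day 8, 0 of 8 tested were called and 0% of all genes were by edgeR, although 3479 genes had an unadjusted p under 0.05 and DESeq2 called 238. An F test of edgeR over the 6 groups passed an adjusted p of 0.05 for 7 of the 9 genes, all but *Eomes* and *Draxin*, and for 41.9% of all genes.

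**Figure D1:**
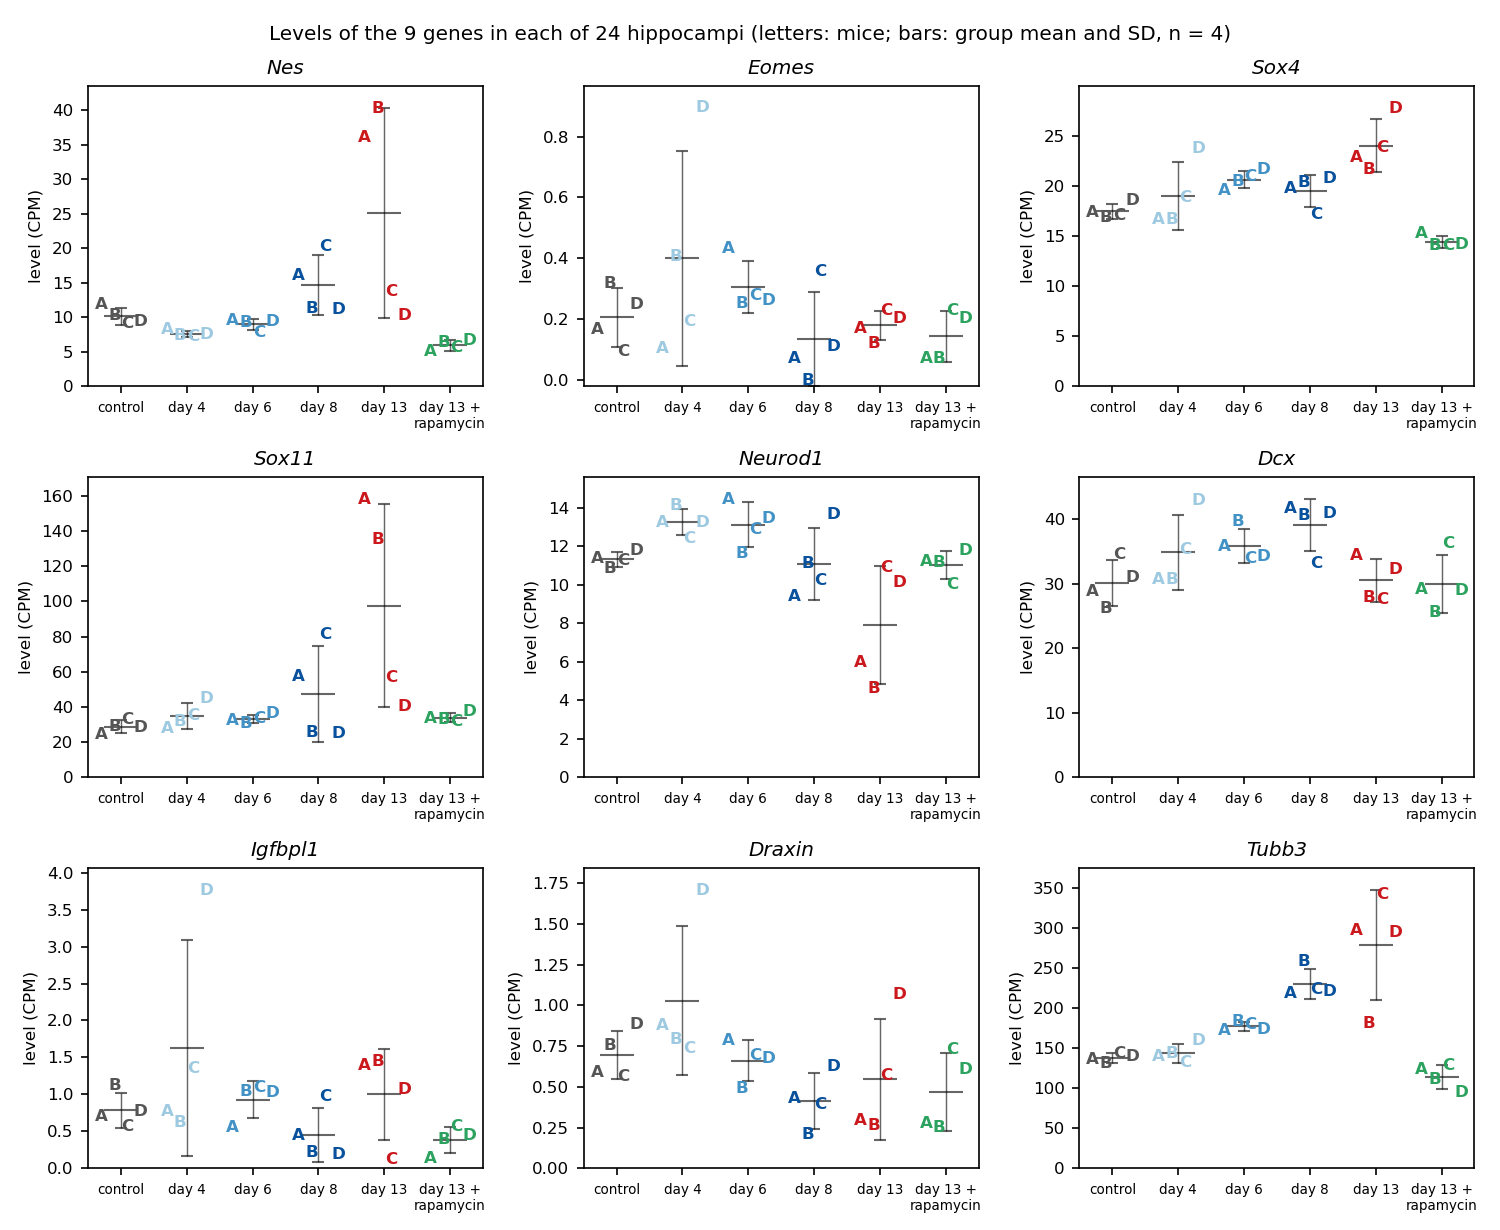
Level of each of the 9 genes (CPM, linear axes) in each mouse, with letters A to D for the mice of a group, a horizontal bar for the group mean and whiskers for 1 SD (n = 4). *Nes* and *Sox11* were high in day 13 mice A and B and in day 8 mice A and C, while *Tubb3* was above all controls in all 4 mice on days 6, 8 and 13.

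The level per kilobase of exon differed widely between the genes. Averaged over the 24 mice, *Tubb3* had the highest level per length, 96.6 CPM per kb. *Sox11* followed at 5.53, *Neurod1* at 4.13, *Sox4* at 4.00, *Dcx* at 2.64 and *Nes* at 1.88 CPM per kb. *Igfbpl1* (0.266 CPM per kb), *Draxin* (0.122) and *Eomes* (0.0549) were near the limit of these libraries, with means of 52.6, 35.0 and 12.8 counts per mouse. Changes of these last 3 genes can be seen only when they are large.

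*Nes* (chromosome 3, 87971078 to 87980451, plus strand, GRCm38) encodes nestin, the filament protein of neural stem cells. The controls measured 11.9, 10.2, 9.04 and 9.47 CPM. On day 13 the mice measured 36.1, 40.2, 13.7 and 10.3 CPM, and on day 8 they measured 16, 11.3, 20.3 and 11.1 CPM. Mice A and B on day 13 were thus far above the control mean of 10.1 ± 1.25 CPM (SD, n = 4), whereas day 13 mouse D lay inside the control range. Against controls, it was higher by a log2 fold change of 1.28 on day 13 (SE 0.385, edgeR adjusted p = 0.0349) and 0.52 on day 8 (SE 0.181, adjusted p = 0.0836). The day 13 call depended on single mice: without any 1 of the 4 controls, or without day 13 mouse A or B, the adjusted p lay between 0.0670 and 0.0930, and the log2 fold change without mouse B was 0.98. With the level of *Xist*, which reflects sex, as a covariate, it was 0.72 (adjusted p = 0.0557).

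In the earlier and the treated mice, *Nes* was low. All 4 day 4 mice (8.18, 7.41, 7.22 and 7.54 CPM) lay below all controls, with a log2 fold change of -0.42 (edgeR adjusted p = 0.0259), which is under the fold minimum. The rapamycin-treated mice measured 5.00, 6.4, 5.64 and 6.68 CPM, below every mouse of every other group. *Nes* was lower in these mice by 0.77 on the log2 scale than in controls (SE 0.116, edgeR adjusted p = 0.00377). It was lower by 2.07 than in day 13 mice (SE 0.391, edgeR adjusted p = 0.00415). In a fit of all 24 mice together, the difference from controls had an adjusted p of 0.242. In the order of the group means, rapamycin was lowest, followed by day 4, day 6, control, day 8 and day 13. Apart from rapamycin and day 4, the ranges of neighbours in that order overlapped.

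*Eomes* (chromosome 9, 118478212 to 118486132, plus strand), the factor of intermediate progenitors, was barely detected. Counts ranged from 0 to 54 per mouse, and the single 0, in day 8 mouse B, allows up to 0.0519 CPM at 3 counts. The controls measured 0.165, 0.317, 0.0944 and 0.249 CPM, and the day 4 mice 0.105, 0.406, 0.193 and 0.895 CPM. The highest value of all 24 mice was that of day 4 mouse D, and the ranges of all neighbouring groups overlapped. The log2 fold change on day 4 was 0.96 (SE 0.586, edgeR adjusted p = 0.424) and became 0.18 without mouse D. *Eomes* had too few counts to be tested on day 8 and between rapamycin and day 13.

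*Sox4* and *Sox11* are related SoxC transcription factors of neuroblasts and newborn neurons. *Sox11* (chromosome 12, 27334264 to 27342574, minus strand) measured 24.3, 28.8, 33.2 and 28.6 CPM in controls and 158, 135, 57.0 and 40.1 CPM on day 13. All 4 day 13 mice lay above all controls, mice A and B far above. Its log2 fold change on day 13 was 1.74 (SE 0.379, edgeR adjusted p = 0.010), and the call held with each of the 8 mice left out, between 1.41 and 2.00.

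On day 8 *Sox11* divided the group. Mice A and C measured 57.4 and 81.1 CPM, above all controls, and mice B and D measured 25.8 and 25.1 CPM, inside the control range. A difference of 0.70 on the log2 scale did not pass the test (SE 0.322, adjusted p = 0.175). With the series of animal numbers that controls and day 8 mice share as a block, it was 0.70 as well (edgeR adjusted p = 0.192). The rapamycin-treated mice measured 33.3, 33.1, 31.5 and 37.7 CPM, below all day 13 mice and partly above the controls. *Sox11* was lower in them by 1.51 on the log2 scale than on day 13 (SE 0.365, edgeR adjusted p = 0.0123). The difference from controls was 0.24 (SE 0.0866, edgeR adjusted p = 0.155). The ranges of all groups next to each other in level overlapped for *Sox11*.

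*Sox4* (chromosome 13, 28948919 to 28953713, minus strand) lay at similar levels in the mice of most groups. It measured 17.4, 16.9, 17.1 and 18.6 CPM in controls and 22.8, 21.6, 23.8 and 27.7 CPM on day 13, with no overlap. The log2 fold change on day 13 was 0.44 (SE 0.099, edgeR adjusted p = 0.0116), past the p threshold and under the fold minimum. All 4 day 6 mice, between 19.5 and 21.6 CPM, also lay above all controls. The day 6 log2 fold change of 0.23 was likewise under the fold minimum (SE 0.0576, edgeR adjusted p = 0.0220). On day 4 the mice were spread from 16.6 to 23.8 CPM, 2 below all controls and 2 above all controls (log2 fold change 0.12, adjusted p = 0.580). The rapamycin-treated mice, at 15.3, 14, 14 and 14.2 CPM, lay below all controls and all other mice. *Sox4* was lower in them by 0.73 on the log2 scale than on day 13 (SE 0.105, edgeR adjusted p = 0.00127). Against controls the difference was -0.28 (SE 0.0649, adjusted p = 0.0312), again under the fold minimum. In contrast to *Nes* and *Sox11*, day 13 mouse D was the highest for *Sox4*.

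*Neurod1* (chromosome 2, 79452521 to 79456751, minus strand), a basic helix-loop-helix factor that newborn granule neurons need to survive and mature, was low in the day 13 mice that were high for *Nes* and *Sox11*. It measured 11.4, 10.8, 11.3 and 11.8 CPM in controls and 5.97, 4.63, 10.9 and 10.1 CPM on day 13. Mice A and B had the lowest values of all 24 mice, and mouse C lay inside the control range. Its log2 fold change was -0.54 with a wide error (SE 0.253, edgeR adjusted p = 0.138). In the fit of all 24 mice it was -0.54 as well, with an adjusted p of 0.0182. On day 4 all 4 mice, between 12.4 and 14.1 CPM, lay above all controls, with a log2 fold change of 0.23 (SE 0.0644, adjusted p = 0.0693). The rapamycin-treated mice lay between 10.0 and 11.8 CPM, a difference from controls of -0.03 (SE 0.0773, adjusted p = 0.864). Against day 13 the difference was 0.50 (adjusted p = 0.160), and in the fit of all 24 mice it had an adjusted p of 0.0249.

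*Dcx* (chromosome X, 143855842 to 143933311, minus strand) encodes doublecortin, a microtubule-binding protein of migrating and immature neurons. The controls measured 28.8, 26.1, 34.6 and 30.9 CPM and the day 13 mice 34.3, 27.9, 27.6 and 32.2 CPM. The day 13 values lay within the control range, and the log2 fold change was -0.0013 (SE 0.11, edgeR adjusted p = 0.995). *Dcx* had its highest group mean on day 8, at 41.7, 40.6, 33.1 and 40.9 CPM, where 3 of 4 mice lay above all controls. On day 8 a log2 fold change of 0.36 passed the p threshold (SE 0.0961, adjusted p = 0.0316) and not the fold minimum. The highest single value of the 24 mice was that of day 4 mouse D, 42.9 CPM. On day 4 the log2 fold change was 0.21 (edgeR adjusted p = 0.329), and without mouse D it was 0.09. That mouse was also the highest of its group for *Sox11* (44.8 CPM), *Sox4* (23.8 CPM) and *Tubb3* (160 CPM). The rapamycin-treated mice measured between 25.5 and 36.3 CPM, a difference from controls of -0.0081 (SE 0.105, adjusted p = 0.979). The ranges of all neighbouring groups overlapped.

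*Igfbpl1* (chromosome 4, 45809468 to 45826923, minus strand) is related to the insulin-like growth factor-binding proteins and marks newborn neurons. The controls lay between 0.566 and 1.12 CPM. Day 4 mouse D, at 3.76 CPM, was the highest of all 24 mice, and day 13 mouse C, at 0.114 CPM from 4 counts, was the lowest. The rapamycin-treated mice measured 0.139, 0.394, 0.562 and 0.447 CPM, below all controls by a narrow margin. Their log2 fold change of -0.97 did not pass the test (SE 0.333, edgeR adjusted p = 0.135). On day 8 the log2 fold change was -0.82 (adjusted p = 0.273), and without day 8 mouse C it was -1.51 (edgeR adjusted p = 0.0256). On day 4 it was 1.05 (adjusted p = 0.271), and without mouse D it was 0.22.

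*Draxin* (chromosome 4, 148098437 to 148130698, minus strand), a secreted guidance protein that repels growing axons, was found at 0.207 to 1.71 CPM. The controls measured 0.587, 0.751, 0.566 and 0.882 CPM and the day 8 mice 0.426, 0.207, 0.394 and 0.622 CPM. Of the day 8 mice, 3 of 4 lay below all controls, and the log2 fold change was -0.77 (SE 0.316, edgeR adjusted p = 0.135). The highest value was again that of day 4 mouse D. The sum of 5 markers of subventricular and olfactory neuroblasts (*Dlx1*, *Dlx2*, *Dlx5*, *Sp8* and *Sp9*) lay in that mouse inside the 19.2 to 21.6 CPM of the other day 4 mice. Over all 24 mice this sum lay between 11.4 and 21.6 CPM, and 0 of its 5 genes were called in any comparison by edgeR.

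*Tubb3* (chromosome 8, 123411424 to 123422015, plus strand), the beta-tubulin of neurons, lay above all controls in every untreated mouse from day 6 on. It measured 136, 131, 144 and 140 CPM in controls, 173, 184, 180 and 173 CPM on day 6, and 218, 258, 223 and 221 CPM on day 8. No mouse of day 6 or day 8 overlapped the controls, and days 6 and 8 did not overlap each other. The log2 fold change was 0.06 on day 4 (adjusted p = 0.599), 0.36 on day 6 (SE 0.0382, edgeR adjusted p = 9.92e-05) and 0.73 on day 8 (SE 0.0635, adjusted p = 0.00012). Only the day 8 value also passed the fold minimum. With the shared series of animal numbers as a block, the day 8 value was 0.73 (edgeR adjusted p = 0.000399).

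On day 13 *Tubb3* measured 298, 181, 342 and 295 CPM. All 4 mice lay above all controls, but mouse B, one of the mice highest for *Nes*, was the lowest for *Tubb3*. The log2 fold change was 1.00 (SE 0.17, edgeR adjusted p = 0.00353). In rapamycin-treated mice it measured 123, 112, 129 and 94.8 CPM, below all controls. It was lower in them by 1.28 on the log2 scale than on day 13 (SE 0.184, edgeR adjusted p = 0.00129). The difference from controls was -0.27 (SE 0.0792, edgeR adjusted p = 0.0859). With each of the 8 mice left out, the day 13 log2 fold change stayed between 0.91 and 1.17 and the rapamycin against day 13 change between -1.44 and -1.17, all called.

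Another gene overlaps 4 of the 9 in the annotation: *Neurod1* (*Cerkl*) and *Tubb3* (*Gm20388*) on the same strand, *Draxin* (*Mad2l2*) and *Eomes* (*Gm33460*) on the opposite strand. The libraries were stranded, but the strand setting of the counting was not stated, so reads of these pairs may be shared or lost.

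**Figure D2:**
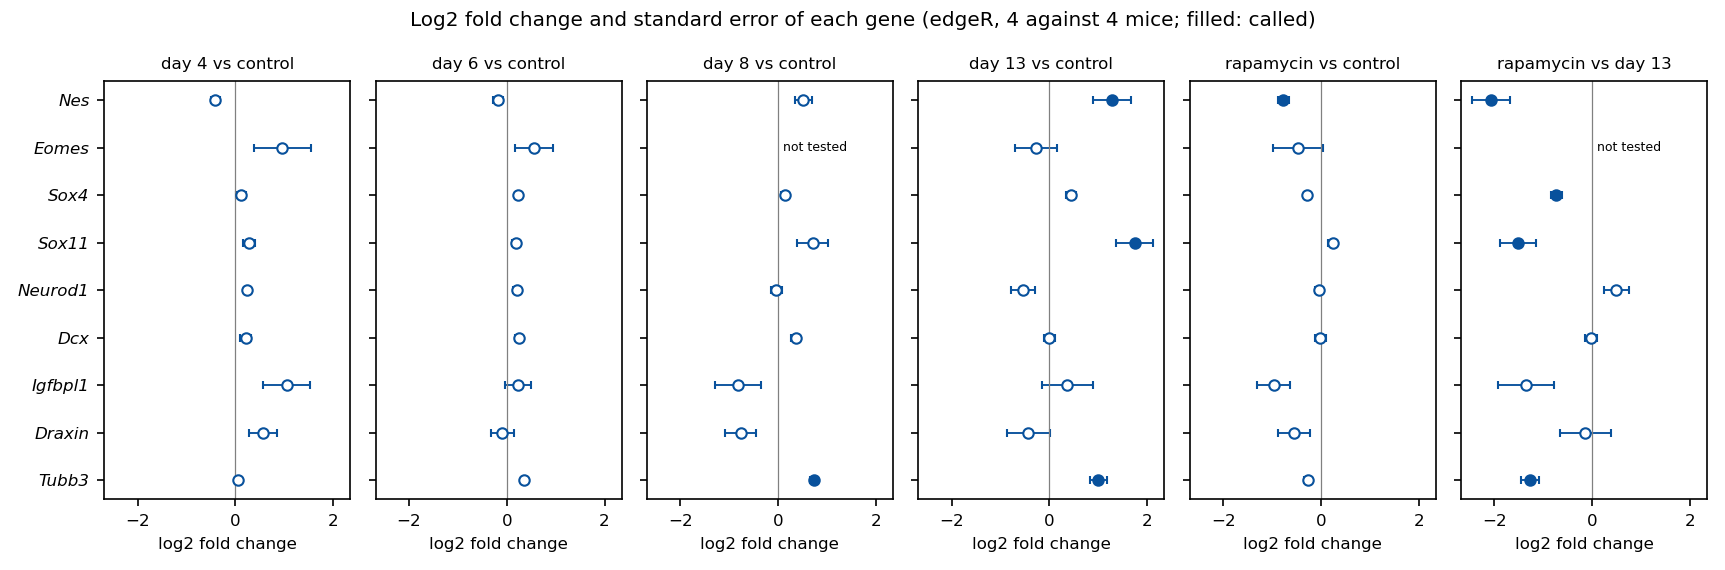
Log2 fold change with its standard error for each gene (rows) in 6 comparisons (panels), from edgeR on 4 against 4 mice, with filled circles for called genes. *Nes*, *Sox4*, *Sox11* and *Tubb3* are filled to the left of 0 between rapamycin and day 13, and *Dcx* sits near 0 on day 13 and in both rapamycin comparisons.

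The promoters of the 4 genes that were lower together in rapamycin-treated than in day 13 mice are shown so that their sequences can be compared. Each is the 250 bases before the start site in RefSeq (build GRCm38.p6), 5′ to 3′ along the gene, and 8 of the 9 genes matched a RefSeq entry, *Igfbpl1* being the exception. Capitals mark motifs that were searched on both strands: the E-boxes CAGCTG and CAGATG that NeuroD-type factors bind, the Sox motif ACAAAG, the cyclic AMP response element TGACGTCA, the AP-1 site TGANTCA, the CCAAT box and TATAA.
Sox11, chr12:27342719-27342968, minus strand: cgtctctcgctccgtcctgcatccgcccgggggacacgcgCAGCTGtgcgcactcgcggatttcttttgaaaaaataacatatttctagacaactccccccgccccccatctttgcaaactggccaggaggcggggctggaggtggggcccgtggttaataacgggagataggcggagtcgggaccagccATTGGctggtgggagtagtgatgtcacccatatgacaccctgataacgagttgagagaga
Sox4, chr13:28953700-28953949, minus strand: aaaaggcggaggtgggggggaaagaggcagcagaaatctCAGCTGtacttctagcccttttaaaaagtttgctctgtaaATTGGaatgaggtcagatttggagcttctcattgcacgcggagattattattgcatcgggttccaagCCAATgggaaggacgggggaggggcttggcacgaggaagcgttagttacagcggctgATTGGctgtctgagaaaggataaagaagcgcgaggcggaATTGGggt
Tubb3, chr8:123411303-123411552, plus strand: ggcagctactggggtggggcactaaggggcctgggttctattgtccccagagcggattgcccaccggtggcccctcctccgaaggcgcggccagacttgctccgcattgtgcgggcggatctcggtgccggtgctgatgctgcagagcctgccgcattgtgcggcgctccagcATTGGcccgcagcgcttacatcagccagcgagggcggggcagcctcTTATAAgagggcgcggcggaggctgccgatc
Nes, chr3:87970843-87971092, plus strand: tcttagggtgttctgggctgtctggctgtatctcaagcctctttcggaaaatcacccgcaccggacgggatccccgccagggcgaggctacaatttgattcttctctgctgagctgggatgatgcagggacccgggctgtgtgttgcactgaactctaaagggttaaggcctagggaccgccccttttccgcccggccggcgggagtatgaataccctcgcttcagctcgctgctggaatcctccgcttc

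In these windows, *Sox11* and *Sox4* each held 1 CAGCTG, at -210 and -211 from the start site, a motif found in 13% of all 32851 RefSeq promoter windows of this length. A CCAAT box, found in 33.8% of all windows, occurred once in *Sox11* and *Tubb3* and 4 times in *Sox4*. In *Sox11*, *Tubb3* and 3 of the 4 in *Sox4* it is on the opposite strand and reads ATTGG. *Tubb3* held TATAA at -30, as TTATAA, which is read on both strands and was counted on each (TATAA is in 22.8% of windows). None of the 7 motifs was found in the *Nes* window. The other motifs occur in 14.4% (CAGATG), 16.5% (ACAAAG), 1.55% (TGACGTCA) and 6.75% (TGANTCA) of all windows. A match describes the letters and is not a measured binding site.

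Genes of the same pathway were taken from 6 lists, described by their counts and medians beside those of all genes. Over all genes tested, 2.15% were called higher and 1.84% lower on day 8, 8.4% and 8.06% on day 13, 0.372% and 1.04% between rapamycin and control, and 9.94% and 11.2% between rapamycin and day 13. The all-gene medians of these comparisons were -0.03, -0.04, 0.0058 and 0.023 on the log2 scale. The 20 radial glia and stem cell genes were divided on day 13: 3 of 20 were called higher and 3 lower, with a list median of -0.51 on the log2 scale against -0.04 over all genes. The filament genes *Vim* (log2 fold change 2.29, edgeR adjusted p = 0.0205) and *Gfap* (1.91, adjusted p = 0.00466) and the Notch target *Hes1* (1.01, adjusted p = 0.00870) were higher. *Vim* measured 91.1, 307, 33.6 and 47.1 CPM in day 13 mice A to D, so that mouse B stood far above the others. Another Notch target, *Hes5*, fell by 2.11 on the log2 scale (adjusted p = 0.0254), from 2.95 ± 0.706 to 0.752 ± 0.68 CPM (SD, n = 4), and *Hopx* and *Sox21* were also called lower. In rapamycin-treated mice 5 of 20 were called lower than in controls and 0 higher, among them the lipid-binding protein gene *Fabp7* (-1.12), the matrix gene *Tnc* (-1.03) and *Gfap* (-0.77), with a list median of -0.29 against 0.0058 over all genes.

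The list of 20 proliferation genes had the largest share of calls of the 6 lists on days 8 and 13 and between rapamycin and day 13. On day 8, 9 of 19 tested were called higher and 0 lower, and on day 13, 10 of 20 were called higher and 1 lower, with list medians of 0.70 and 0.58. *Top2a*, the topoisomerase of dividing cells, measured 2.55 ± 0.509 CPM in controls (SD, n = 4), 8.45 ± 4.8 CPM on day 8 and 6.03 ± 3.72 CPM on day 13. It was highest in day 8 mice A and C (13.4 and 11.7 CPM) and day 13 mouse B (11.6 CPM), mice with high sums of reactive astrocyte markers, while day 13 mouse A, also with a high sum, measured 3.41 CPM. *Ube2c*, *Ccnb1* and *Bub1*, genes of mitosis, had the largest changes on day 13 (2.17, 1.87 and 1.61 on the log2 scale), from control levels of 0.0784, 0.496 and 0.204 CPM. *Ube2c* was near the limit, with its lowest control at 0 CPM and a day 13 mean of 0.367 CPM. *Mcm6*, of the replication helicase, was the 1 gene called lower (-0.90). *Mki67*, at 12.8 CPM in controls, was called higher on day 8 (0.64, edgeR adjusted p = 0.0153) and was not called on day 13 (0.17, edgeR adjusted p = 0.479). In rapamycin-treated mice *Top2a* was 0.653 ± 0.222 CPM, with all 4 mice below all controls (log2 fold change -1.93, edgeR adjusted p = 0.00119), and *Cenpf* was also called lower (-0.91). Against day 13, 15 of 20 were called lower under rapamycin and 1 higher, with a list median of -0.93 against 0.023 over all genes. All dividing cells of the tissue share these genes, so the list does not name the cell type that carried them.

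**Figure D3:**
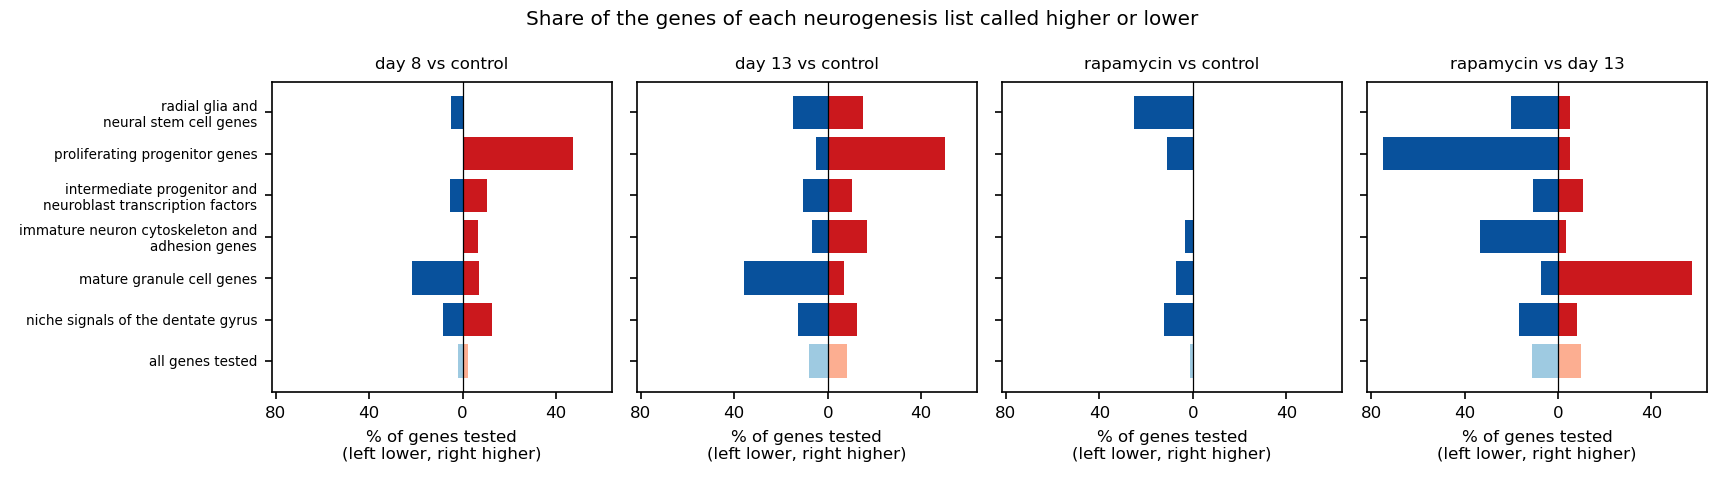
Share of the tested genes of each list called lower (bars to the left) or higher (bars to the right) in 4 comparisons, as a percent of the genes tested, with all genes tested as the lowest row. The proliferation list reached 9 of 19 on day 8 and 15 of 20 lower between rapamycin and day 13, and 8 of 14 mature granule cell genes were higher between rapamycin and day 13.

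The 20 intermediate progenitor and neuroblast factors, of which 19 were tested, gave 2 called higher and 2 lower on day 13, each share close to the 8.4% and 8.06% of all genes. *Gadd45g*, a stress-response gene also found in neuroblasts, and *Neurod2*, a factor of excitatory neurons, were higher (log2 fold changes 2.22 and 0.89). *Nhlh1* and *Insm1*, which are found in newly committed neurons, were lower (-1.43 and -0.95). *Insm1* measured 2.81 ± 0.458 CPM in controls and 1.48 ± 0.0681 CPM on day 13 (SD, n = 4). The list median was -0.19, against -0.04 over all genes. In rapamycin-treated mice 0 of 19 were called by edgeR, and *Prox1*, the factor that marks granule cells at all ages, measured 140 ± 24.8 CPM against 133 ± 8.3 CPM in controls, and *Neurod6* 105 ± 7.41 CPM against 115 ± 18.8 CPM.

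Of 30 genes for the cytoskeleton and adhesion of immature neurons, 5 were called higher and 2 lower on day 13, with a list median of 0.25. The tubulin genes *Tubb2b* (log2 fold change 1.25, edgeR adjusted p = 0.00657) and *Tubb2a* (0.92, adjusted p = 0.000246) rose with *Tubb3*, as did *Tuba1a*, *Stmn4* and *Dclk1*. *Fxyd7*, a regulator of the sodium pump, and *St8sia4*, a polysialyltransferase, fell by 1.35 and 0.76 on the log2 scale. Against day 13, 10 of 30 were called lower under rapamycin and 1 higher, with a median of -0.34, and *Tuba1a* was the 1 gene also called lower than in controls (-0.51). Similar tubulin genes can share reads, so their separate values are uncertain.

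Of 14 mature granule cell genes, 5 were called lower and 1 higher on day 13, with a list median of -0.63. *Plk5*, a kinase-family gene, fell from 23.4 ± 1.53 CPM to 1.09 ± 1.03 CPM (SD, n = 4; log2 fold change -4.62, edgeR adjusted p = 0.00195). The calcium channel gene *Trpc6* fell by 1.35 and calbindin (*Calb1*) by 1.19 on the log2 scale, and the synaptic vesicle gene *Sv2c* was higher (1.59). Against day 13, 8 of 14 were called higher under rapamycin and 1 lower, with a median of 0.73. Against controls, *Plk5* alone was called lower (-0.52).

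Among 25 niche signals, 24 tested, 3 were called higher and 3 lower on day 13, with a median of 0.021. *Bdnf*, a neurotrophin released by active neurons, measured 40.6 ± 1.49 CPM in controls and 147 ± 61.7 CPM on day 13 (SD, n = 4; log2 fold change 1.83, edgeR adjusted p = 0.00157). The neuropeptide gene *Vgf* and the vascular growth factor gene *Vegfa* were also higher (1.65 and 1.15), and *Cxcl12*, a chemokine that guides progenitors, fell by 1.69 on the log2 scale. In rapamycin-treated mice 3 of 24 were called lower than in controls and 0 higher: *Bmp4* (-1.40), *Cxcr4* (-0.76) and *Wnt7a* (-0.59). *Bmp4* was also in the set of oligodendrocyte precursor markers. Of that set 2 of 5 were called lower than in controls, with 2 of 4 oligodendrocyte markers, beside 1.04% of all genes. The part of these cells in the level of *Bmp4* was not tested.

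Markers of other cells moved with some of the 9 genes. The summed level of 5 reactive astrocyte markers (*Gfap*, *Vim*, *Serpina3n*, *Lcn2* and *Cd44*) lay between 211 and 266 CPM in controls. In day 8 mice A and C it was 834 and 1131 CPM, and in mice B and D it was 177 and 218 CPM. On day 13 it was 1153 and 2204 CPM in mice A and B and 471 and 553 CPM in mice C and D, and in rapamycin-treated mice it lay between 145 and 168 CPM. The mice with the highest sums were thus those highest for *Nes* and *Sox11*, and on day 13 those lowest for *Neurod1*. Of the 5 markers, 5 were called higher on day 13 and 4 lower between rapamycin and day 13, and none was at 0 in any mouse. Between rapamycin and control, *Gfap* was called lower and *Lcn2*, an acute-phase gene, was called higher (log2 fold change 1.32, edgeR adjusted p = 0.0314). *Gfap* and *Vim* are also in the radial glia list, and their part in the levels of *Nes* and *Sox11* was not tested.

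**Figure D4:**
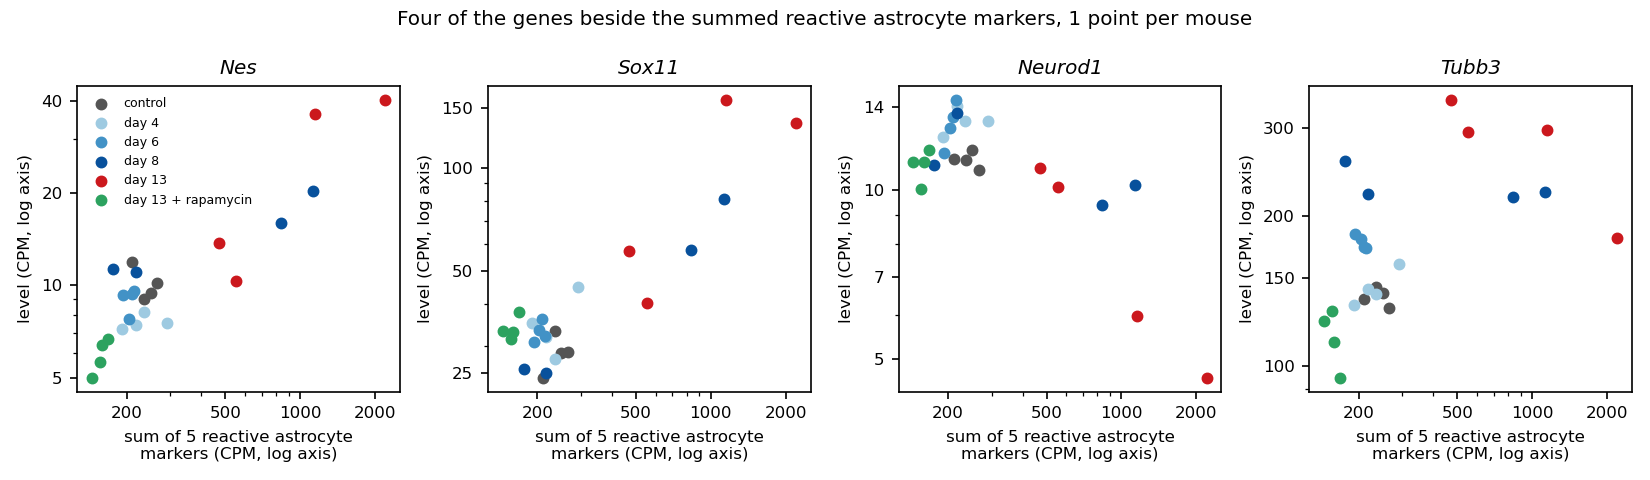
Level of *Nes*, *Sox11*, *Neurod1* and *Tubb3* (CPM, log axes) against the summed level of 5 reactive astrocyte markers (CPM, log axis), 1 point per mouse, coloured by group. For *Nes* and *Sox11* the day 13 mice at 1153 and 2204 CPM and the day 8 mice at 834 and 1131 CPM lie to the upper right, while the day 13 mouse with the highest sum has the lowest *Tubb3* of its group.

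The summed level of 4 pyramidal neuron markers (*Slc17a7*, *Spink8*, *Fibcd1* and *Bok*) followed *Tubb3* in part. It lay between 787 and 964 CPM in controls, 909 and 981 CPM on day 4 and 973 and 1068 CPM on day 6. On day 8 it lay between 932 and 1188 CPM, on day 13 between 1176 and 1287 CPM and under rapamycin between 699 and 927 CPM. All mice of days 6 and 13 were above all controls. On day 4, however, *Tubb3* had a log2 fold change of only 0.06. Day 8 mouse D, at 932 CPM, lay inside the control range of the sum but above all controls for *Tubb3*. Day 13 mouse B, lowest of its group for *Tubb3*, had a sum of 1255 CPM. Of the 4 markers, 1 was called higher on day 13, 1 lower between rapamycin and day 13 and 0 on day 6 or day 8. None was at 0 in any mouse. The summed level of 2 excitatory neuron markers, *Camk2a* and *Neurod2*, did not follow *Tubb3*. Its group means were 1927 CPM in controls and 2478, 2225, 1909 and 2005 CPM on days 4, 6, 8 and 13, and 1955 CPM under rapamycin. Most of this sum was *Camk2a*, at a mean of 1849 CPM in controls. *Neurod2* alone did rise with the days, from a mean of 77.5 CPM in controls to 101, 109, 124 and 146 CPM on days 4, 6, 8 and 13. Under rapamycin its mean was 94.6 CPM. Of these 2 markers, 1 was called higher on day 8 and 1 on day 13, *Neurod2* both times. The part of either set in the level of *Tubb3* was not tested.

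*Nes* is also expressed in blood vessels, whose markers were summed in the same way. The summed level of 4 endothelial markers lay between 130 and 155 CPM in controls, 127 and 168 CPM on day 13 and 107 and 116 CPM in rapamycin-treated mice, with 0 of 4 called on day 13 and 1 of 4 called lower under rapamycin. For 4 pericyte and mural markers these ranges were 168 to 188 CPM, 156 to 201 CPM and 142 to 155 CPM, with 0 called in either comparison. None of these markers was at 0 in any mouse, and their part in the level of *Nes* was not tested. The choroid plexus markers, which report how much of that tissue came with the dissection, differed by mouse, from 37.3 to 1636 CPM over all mice, and varied widely within every group.

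Among the 18259 genes with a mean of at least 1 CPM, those whose level over the 24 mice was most like that of *Dcx* were *Gpc6*, *Nup210*, *Gm36858*, *Cgn* and *Osr1*, with Pearson coefficients on log2 CPM between 0.694 and 0.718. For *Eomes* they were *Fras1*, *Ptpro*, *Marcks*, *Adamts18* and *Meis1*, between 0.592 and 0.691. The points share their groups, so differences between groups are part of these values, which are given as a description. *Draxin* and *Igfbpl1*, whose means are under 1 CPM and which were therefore not ranked, had coefficients of 0.72 and 0.64 with *Eomes*, and day 4 mouse D was the highest of all mice for each of the 3 genes.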

How the data were processed

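Stranded, rRNA-depleted total RNA libraries of the 24 hippocampi were sequenced as paired 76-nt reads. The authors trimmed reads with cutadapt (1.16.5), dropped those under 50 nt, aligned them with STAR (2.7.2b) to GRCm38 and counted them per gene with featureCounts (1.6.4) on GENCODE release 24. The strand setting of the counting was not given in the sources used here. The deposited values are raw counts per gene and sample. Names and exon lengths came from GENCODE release 21, which held 55144 of the 55385 identifiers.

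Groups came from the sample labels. Each comparison was a quasi-likelihood F test in edgeR (4.0.16, R 4.3.3) on its 8 mice after filterByExpr and TMM scaling. P-values were Benjamini-Hochberg adjusted over all genes tested. The test was tried on simulated counts with the levels and spread of the day 13 and control mice. At an adjusted p under 0.05, without the fold minimum, it recovered 20% of simulated 1.5-fold changes and 55% of 2-fold changes. Only 100 of 24514 genes were changed by each fold, far fewer than were called on day 13. The adjustment depends on how many genes change, so these shares do not give the power of the real comparison. A standard error is the absolute log2 fold change divided by the root of F. Levels are CPM with TMM factors over 24 mice, and genes of like pattern were ranked on log2(CPM + 0.5) among genes with a mean of at least 1 CPM. Limits from 3 counts cover counting error only. Tables were handled in Python (3.11.15, pandas 2.3.3). The 9 genes, the lists and the marker sets were chosen with earlier results of these data known. From each list the text names up to 4 called genes with the largest change on day 13 and up to 3 under rapamycin, or the 2 most abundant where none was called, and further called genes were named after their values were seen. Alternatives were DESeq2 (1.42.0), its size factors, no filter, no fold minimum, all 24 mice in 1 fit, a replicate block, *Xist* or *Ttr* as a covariate, the animal series as a block on day 8, and each mouse left out. The deviations of same-lettered mice from their group means had a Pearson coefficient over 0.1 in at most 2 of 4 pairs of any comparison. The letters were therefore not taken as pairs.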

Additional observations from a re-analysis of the deposited data

Results flagged for a closer look

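In 7 of 54 groups of 4 mice, 1 mouse stood apart from the other 3 by Dixon's criterion, which chance meets in about 1 in 20 groups. *Nes* was low in day 6 mouse C (7.75 CPM, the others 9.28 to 9.59 CPM), *Dcx* in day 8 mouse C (33.1 CPM, the others 40.6 to 41.7 CPM) and *Igfbpl1* in day 6 mouse A (0.549 CPM, the others 1.03 to 1.09 CPM). *Tubb3* was high in day 8 mouse B (258 CPM, the others 218 to 223 CPM), *Sox4* in rapamycin mouse A (15.3 CPM, the others 14 to 14.2 CPM), *Draxin* in day 4 mouse D (1.71 CPM) and *Eomes* in day 6 mouse A (0.432 CPM).

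Rapamycin-treated and untreated day 13 mice differed by edgeR's test for *Nes* (log2 fold change -2.07), *Sox11* (-1.51), *Tubb3* (-1.28) and *Sox4* (-0.73).

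In other pairs of groups, all 4 mice of one lay above the control mean and all 4 of the other below it, and these differences between the groups were not tested. The values are differences between the group means of the log2 ratio to the control mean, the first group minus the second. For *Nes* they were -0.87 (day 4 and day 8), -1.44 (day 4 and day 13), -0.64 (day 6 and day 8), -1.21 (day 6 and day 13) and 1.20 (day 8 and rapamycin). For *Neurod1* they were 0.79 (day 4 and day 13) and 0.77 (day 6 and day 13), and for *Draxin* 0.72 (day 4 and day 8). For *Tubb3* they were 0.64 (day 6 and rapamycin) and 1.01 (day 8 and rapamycin), and for *Sox4* 0.51 (day 6 and rapamycin).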

How the results depend on the processing

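Of 908 values of single genes under the alternatives other than the fold minimum, 891 stayed on their side of the threshold, 29 of them uncalled with another sign, 9 lost the call, 8 gained it and 0 called values reversed. Without the fold minimum, the count of the 9 genes called was 1 on day 4 (*Nes*), 2 on day 6 (*Sox4* and *Tubb3*), 2 on day 8 (*Dcx* and *Tubb3*), 4 on day 13 (with *Sox4*) and 2 between rapamycin and control (*Nes* and *Sox4*). No share of all genes is given at that threshold, so these counts cannot be set against a background. DESeq2 called 2 on day 8 (*Nes* and *Tubb3*), beside 1208 of all 40844 genes. With all 24 mice in 1 fit, 0 were called between rapamycin and control and 1 (*Sox11*, log2 fold change 1.05, edgeR adjusted p = 0.0474) between day 13 and day 8. That fit also called *Neurod1* on day 13 and between rapamycin and day 13, for counts of 4 and 5, beside 5789 and 6827 of all 27110 genes. With each mouse left out, counts ranged from 1 to 2 on day 8, 2 to 3 on day 13, 1 to 1 between rapamycin and control, 4 to 5 between rapamycin and day 13, 0 to 0 elsewhere and 5 to 8 in the F test over the groups. With the replicate block the counts were 0, 0, 1, 3, 1, 4 and 0 in the 7 comparisons and 7 in the F test, so it changed no count of calls. Over all genes, the fit of all 24 mice called 29 on day 4 in place of 172, 84 on day 6 in place of 332, 162 between rapamycin and control in place of 352, and 1343 between day 13 and day 8 in place of 0. The cause of these changes was not tested. Depth limits *Eomes*, *Draxin* and *Igfbpl1* most.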
